A study of Rattus norvegicus with 5 samples.

Results

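Enzymes that make or inactivate prostaglandins and that break down histamine and biogenic amines were examined in the small intestine of rats under mild to moderate calorie restriction (CR). The group comprised 7 genes: Hpgd, Ptgr1 and Ptgs1 of prostaglandin metabolism, Hnmt and Aoc1 of histamine and diamine breakdown, and Maoa and Maob of monoamine oxidation. They were represented by 9 of the 15866 probe sets (groups of short probes that are read together as 1 signal) on the array. Each of the 9 was annotated with 1 gene symbol, of 10411 genes named in all. The genes were chosen by their shared role and by signals measured on these same arrays, in which Hpgd and Hnmt had already been seen to differ with restriction, so all values below are given as a description and no test was applied to them.

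Male Wistar rats entered the study at 6 weeks of age and were held on a powdered purified diet for 1 month. Control rats received the full daily intake recorded beforehand, and the other groups received 5, 10, 20 or 30% less of it. All rats were fasted for 16 h before the small intestine was taken, and the RNA of 5 rats was pooled per group. A single Affymetrix rat expression array was used for each pool, so there are 5 arrays, no replicate at any level, and no view of differences between rats. The sources used here do not name the segment of the small intestine.

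The values are MAS5 signals, which measure brightness on a linear scale after subtraction of a mismatch probe, and the arrays had been scaled to a common trimmed mean of 132. Median signals lay between 44.9 and 49. Of all probe sets, 7933 had a mean log2 signal at or above the median of the array (a signal of 46.5) and were kept, among them 8 of the 9 for these enzymes. Because no level has a replicate, the central 95% of the log2 ratios of all kept probe sets was taken as a description of the spread between 2 arrays.

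Prostaglandins are made from arachidonic acid by cyclooxygenases such as Ptgs1, act on nearby cells through G protein-coupled receptors, and are quickly inactivated. Hpgd oxidizes their 15-hydroxyl group, and Ptgr1 reduces the resulting 15-keto products and also acts on leukotriene B4. Histamine from mast cells and food is either methylated inside cells by Hnmt or oxidized outside them by the diamine oxidase Aoc1, which the intestinal epithelium secretes. Maoa and Maob sit on the outer mitochondrial membrane and oxidize serotonin, catecholamines and dietary amines.

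Hpgd and Hnmt were the 2 enzymes that stood higher on every CR array than on the control array. The control array was the lowest for their 3 kept probe sets and for 19.1% of all kept probe sets. These genes were selected on such values, so nothing is read from that count. The brighter probe set of Hpgd (1376191_at) gave a signal of 635.2 in the control, followed by 944.7, 929.2, 769 and 1293 with 5, 10, 20 and 30% CR. All 4 CR arrays lay above the control array, and the 30% CR array was the highest. Its log2 ratios to the control were 0.57, 0.55, 0.28 and 1.03, with a mean of 0.61 (SD over the levels 0.31), which is 1.52-fold. The dimmer probe set of Hpgd (1387631_at) gave 396.6 in the control, followed by 612.2, 506.6, 722.5 and 781.7 at the 4 levels. Here too every CR array exceeded the control array, with log2 ratios of 0.63, 0.35, 0.87 and 0.98 and a mean of 0.71 (SD 0.28), or 1.63-fold.

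Hnmt (1387382_at) gave a signal of 206.4 in the control, followed by 307.4, 274.7, 348.8 and 417.7 with 5, 10, 20 and 30% CR. The log2 ratios were 0.57, 0.41, 0.76 and 1.02, with a mean of 0.69 (SD 0.26), or 1.61-fold. The signal of Hnmt at 30% CR was thus 2.02 times that of the control, beside 2.04 and 1.97 times for the probe sets of Hpgd. Hnmt and the dimmer Hpgd probe set ranked the 5 arrays in the same order, from control through 10, 5 and 20 to 30% CR. The brighter Hpgd probe set had another order, from control through 20, 10 and 5 to 30% CR.

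The 250 bases before the RefSeq start site (rat build GRCr8) are shown for Hpgd and Hnmt, the enzymes that were higher on every CR array, and for Maoa, the one that was lower on every CR array. Windows were found for 6 of the 7 genes. They were searched on both strands for TATAAA (a core promoter box), for the motif CCAAT, for GGGCGG (known as the GC box), for CACGTG (the E-box bound by clock proteins) and for TTATGNAA (the D-box). Matches are in capitals, none of the motifs contains another, and they were chosen after the signals were seen.
Hpgd, chr16:39034832-39035081, minus strand: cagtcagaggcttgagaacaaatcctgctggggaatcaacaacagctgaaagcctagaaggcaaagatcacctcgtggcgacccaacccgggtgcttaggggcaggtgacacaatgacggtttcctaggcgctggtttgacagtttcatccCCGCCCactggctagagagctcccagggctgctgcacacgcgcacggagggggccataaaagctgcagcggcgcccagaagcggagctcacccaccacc
Hnmt, chr3:27010292-27010541, minus strand: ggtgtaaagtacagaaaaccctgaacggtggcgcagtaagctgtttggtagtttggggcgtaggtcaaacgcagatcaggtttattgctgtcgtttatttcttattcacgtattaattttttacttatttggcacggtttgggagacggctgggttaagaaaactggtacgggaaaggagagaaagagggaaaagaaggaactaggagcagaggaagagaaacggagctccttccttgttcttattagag
Maoa, chrX:8681373-8681622, minus strand: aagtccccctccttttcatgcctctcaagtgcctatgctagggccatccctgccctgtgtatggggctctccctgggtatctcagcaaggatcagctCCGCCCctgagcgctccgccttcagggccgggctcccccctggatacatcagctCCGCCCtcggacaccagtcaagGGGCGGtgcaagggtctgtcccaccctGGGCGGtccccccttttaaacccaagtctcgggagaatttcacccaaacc
The window of Hpgd held 1 GC box and that of Maoa 4, and none of the motifs searched was found in that of Hnmt. A GC box was present in 3 of the 6 windows (Hpgd, Maoa and Maob) and in 30.5% of all 33469 windows. TATAAA was found for Aoc1 (12.9% of all windows) and CCAAT for Maob (34%), while the E-box (5.59%) and the D-box (3.28%) matched in 0 of the 6. The share of G and C was 60% for Hpgd, 44% for Hnmt and 62.4% for Maoa, with a median of 51.2% over all windows.

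**Figure D1:**
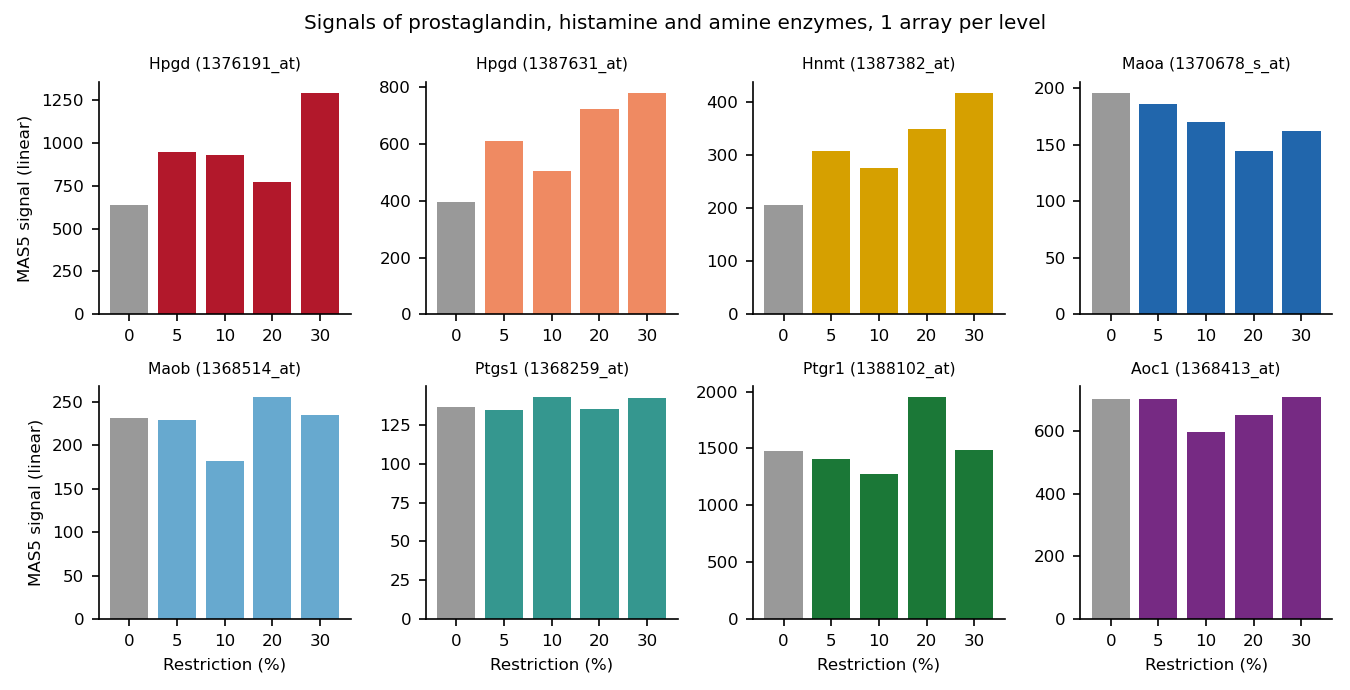
MAS5 signal (linear scale, vertical axis from 0) of the 8 kept probe sets against restriction in percent; each bar is 1 array of a pool of 5 rats, grey for the control. Hpgd and Hnmt were lowest on the control array and highest at 30% CR, Maoa was highest on the control array, and Ptgs1 stayed between 134.5 and 142.7.

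The Hpgd probe sets agreed in sign at all 4 levels, but not in the course over the levels. They differed by at most 0.20 in log2 ratio at 5, 10 and 30% CR and by 0.59 at 20% CR, where the brighter one was at its lowest CR value and the dimmer one was close to its highest. Averaged over both, Hpgd was higher by 0.60, 0.45, 0.57 and 1.00 at the 4 levels. The second probe set of Hnmt (1385762_at) was below the signal filter, with 0.9 in the control, then 7.8, 9, 2.6 and 3.4 at the 4 levels. At such signals a ratio carries little information, and with an added constant its mean log2 ratio moved from 2.47 to 0.41, so it was not read as agreement.

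The 3 kept probe sets of Hpgd and Hnmt lay within the central 95% of all kept probe sets at 5% CR (−0.56 to 0.66) and at 10% CR (−0.55 to 0.62). At 20% CR the dimmer probe set of Hpgd and that of Hnmt were above it (−0.66 to 0.60). At 30% CR all 3 were above it (−0.63 to 0.72). Among the brighter 3967 probe sets the range was narrower, with upper ends of 0.53, 0.46, 0.52 and 0.61, and all 3 then lay outside at 5% CR as well, and the brighter Hpgd probe set at 10% CR. In the mean over the levels, 133 and 77 of the kept probe sets were higher than the brighter and the dimmer one of Hpgd, and 83 were higher than Hnmt.

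**Figure D2:**
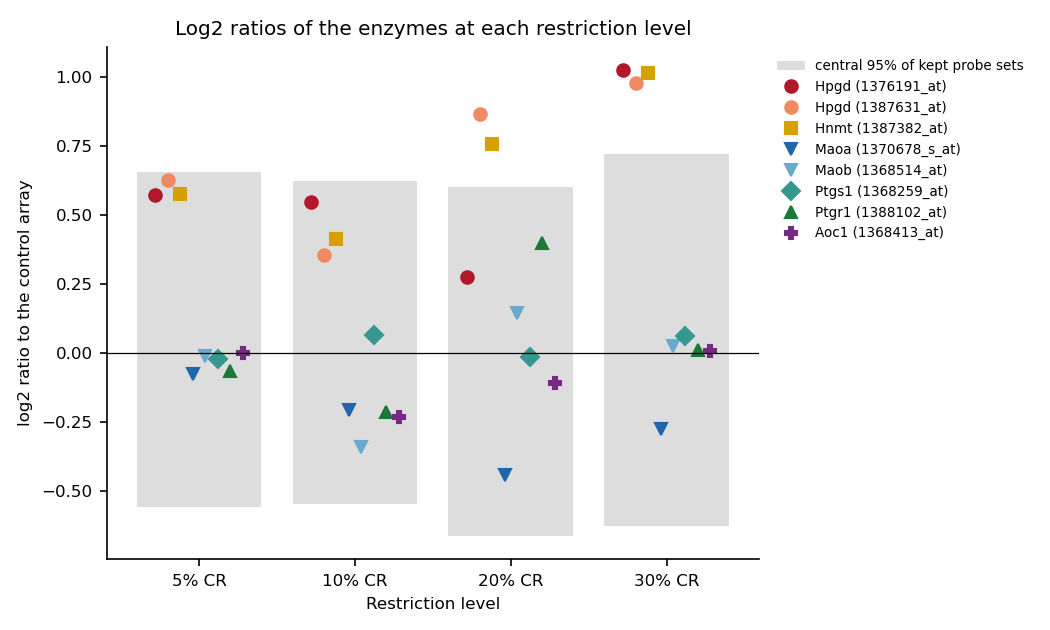
Log2 ratio to the control array at each CR level for the 8 kept probe sets (1 point per array); grey boxes span the central 95% of 7933 kept probe sets. All points of Hpgd and Hnmt are above the box at 30% CR, and the other enzymes are inside it at every level.

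A log2 ratio of at least 0.5 was reached by 3 of the 8 kept probe sets at 5% CR, 1 at 10%, 2 at 20% and 3 at 30% CR, all of them of Hpgd or Hnmt. Over all 7933 kept probe sets, 5.62, 4.73, 3.95 and 7.51% were called higher by this size at the 4 levels. None of the 8 was lower by 0.5 at any level, where 3.84, 3.45, 6.15 and 5.61% of all kept probe sets were. None was past 0.5 at all 4 levels in either direction (background 0.769% higher and 0.34% lower): Hpgd missed it at 20% CR on one probe set and at 10% CR on the other, and Hnmt at 10% CR. Since these genes were selected on such values, nothing is read from the counts. The median over the 8 was −0.01, −0.07, 0.21 and 0.04 at the 4 levels, against 0.01, 0.01, −0.03 and 0.00 over all kept probe sets.

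Over restriction percent, the least squares slope was 0.29 ± 0.08 log2 units per 10% restriction for Hnmt (standard error, 5 arrays), 0.29 ± 0.09 for the dimmer and 0.23 ± 0.13 for the brighter probe set of Hpgd. The central 95% of all kept slopes ran from −0.17 to 0.17. The slope of the brighter Hpgd probe set depended on 1 pool and was 0.08 without the 30% CR pool. Over the 4 CR pools alone, the slopes were 0.21 for Hnmt and 0.20 and 0.14 for Hpgd. The mean of the 20 and 30% CR arrays exceeded that of the 5 and 10% CR arrays by 0.39 for Hnmt and by 0.43 and 0.09 for the dimmer and brighter probe set of Hpgd (log2, central 95% of all kept probe sets −0.43 to 0.35). The arrays were also ordered by the signals of each probe set, not by restriction. No step between neighbours in that order was above the central 95% for those 2 arrays for Hpgd or Hnmt. Among the brighter 3967 probe sets, the step of the brighter Hpgd probe set from 5 to 30% CR was above it. Sorting keeps such steps small, so nothing is read from them.

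**Figure D3:**
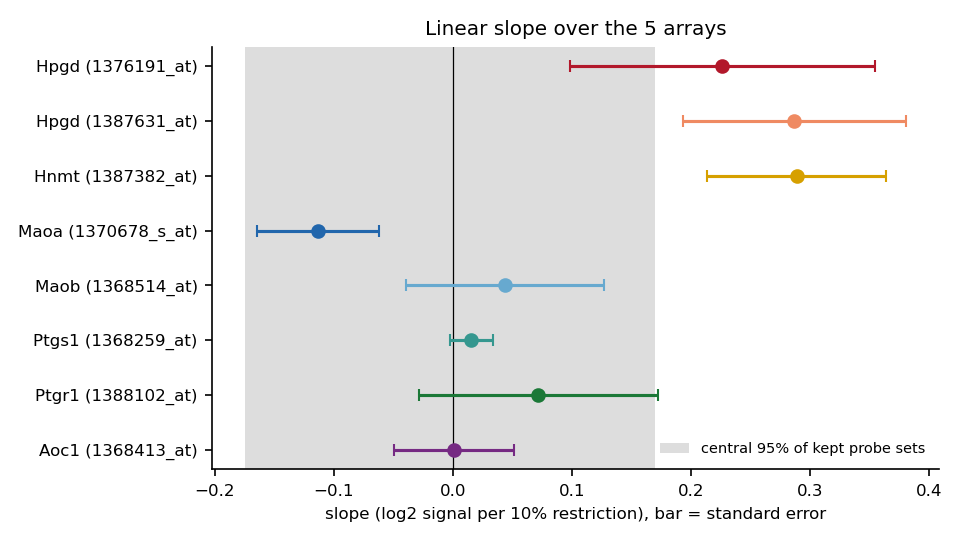
Least squares slope of the log2 signal per 10% restriction over the 5 arrays for the 8 kept probe sets; bars are standard errors and the grey band spans the central 95% of all kept probe sets, from −0.17 to 0.17. Hpgd and Hnmt lie to the right of the band and Maoa is the one negative slope.

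Maoa was the only enzyme below the control array at all 4 levels. The share of all kept probe sets with that trait was not counted, so nothing is read from it. Its probe set (1370678_s_at) gave 195.9 in the control, followed by 185.7, 169.7, 144 and 161.7 with 5, 10, 20 and 30% CR, so the control was the highest array and 20% CR the lowest. The log2 ratios were −0.08, −0.21, −0.44 and −0.28 (mean −0.25, SD 0.15), all within the central 95% of the kept probe sets. The slope was −0.11 ± 0.05 per 10% restriction with all pools and −0.23 without the 30% CR pool.

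Its paralog Maob (1368514_at) did not share this course: its signal was 230.7 in the control, followed by 228.6, 182, 254.8 and 234.6 at the 4 levels. Maob was lowest at 10% CR (log2 ratio −0.34) and highest at 20% CR (0.14), where Maoa was at its lowest. Its mean log2 ratio was −0.05 (SD 0.21).

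The prostaglandin reductase Ptgr1 (1388102_at) had signals of 1477.3 in the control, followed by 1409.9, 1274.4, 1948.1 and 1489.2 at the 4 levels. It ordered the 5 arrays as Maob did, with 10% CR lowest and 20% CR highest, at log2 ratios of −0.21 and 0.40. The 5% CR, control and 30% CR arrays between them were nearly level, with steps of 0.07 and 0.01 for Ptgr1 and 0.01 and 0.02 for Maob. No step of either was above the central 95% for those 2 arrays. The mean was 0.03 (SD 0.26). Ptgr1 thus ordered the arrays differently from both probe sets of Hpgd, the enzyme that acts before it.

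The diamine oxidase Aoc1 (1368413_at) had signals of 703.9 in the control, followed by 704.4, 598.7, 652.6 and 707.9 at the 4 levels. The control, 5% CR and 30% CR arrays were nearly level, and 10% CR was the lowest, with a log2 ratio of −0.23. The mean was −0.08 (SD 0.11), beside 0.69 for Hnmt, the other histamine-degrading enzyme.

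Ptgs1 (1368259_at), the constitutive cyclooxygenase, had signals of 136.6 in the control, followed by 134.5, 142.7, 135 and 142.5 at the 4 levels. The highest signal was 1.06 times the lowest, and only 0.567% of all kept probe sets had a smaller range over the 5 arrays. Its mean log2 ratio was 0.02 (SD 0.05). The inducible cyclooxygenase Ptgs2 was below the filter on every array, with signals from 3.8 to 10.3.

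Of the 8 kept probe sets, 5 had their lowest CR signal on the 10% CR array: those of Maob, Ptgr1, Aoc1 and Hnmt and the dimmer one of Hpgd. The same held for 22.5% of all kept probe sets. For 4 of the 8 the highest CR signal was at 30% CR, against 26.4% of all kept probe sets. These were both probe sets of Hpgd and those of Hnmt and Aoc1. For Aoc1 the signals at 30% CR (707.9) and 5% CR (704.4) were nearly level. Since the genes were selected with these signals known, nothing is read from either count.

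The probe sets whose 4 log2 ratios lay nearest to those of the brighter Hpgd probe set were of Rassf5, Fbxo22 and Pkib, with root mean square differences of 0.10, 0.12 and 0.13. For Hnmt the nearest of 6898 was the dimmer probe set of Hpgd (0.07), followed by Dennd10 (0.08) and Ascl2 (0.11), a transcription factor of intestinal stem cells. The brighter Hpgd probe set was not among these, and had 0.28 at 20% CR, where Hnmt had 0.76. Hpgd and Hnmt were selected with their values on these arrays known, so nothing is read from their likeness or from how few probe sets lay near them. For the tight junction gene Cldn2, the nearest to Maoa, the difference was 0.05. With 4 levels and 1 shared control array, likeness of this kind is frequent among flat genes: 490 probe sets lay within 0.1 of Ptgs1, 212 of Aoc1, 69 of Maoa, 50 of Maob, 29 of Ptgr1, 2 of Hnmt and 0 of the brighter Hpgd probe set.

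Around these enzymes, 71 genes of prostanoid, leukotriene, histamine, monoamine and polyamine metabolism were listed. Of these, 61 were on the array and 21 of those were below the filter. Among the 33 kept genes other than the 7 enzymes, 22 had a positive and 11 a negative mean log2 ratio (median 0.08), beside 49.1% positive among all 6202 kept genes (median −0.01). A mean of at least 0.5 was reached by 4 of the 33, namely Dpep1, Aoc3, Slc22a3 and Ggt1, and 0 were lower by as much, beside 2.81% higher and 1.73% lower of all kept genes. Slc22a3, Inmt and Pla2g4a, all with positive means, had control signals below the filter value (40.3, 44.1 and 37.1) and were kept through CR arrays. Ptger4, with a negative mean, was below it at 20 and 30% CR (43.4 and 39.1). Nothing is therefore read from these counts.

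Dpep1, a membrane dipeptidase that cleaves leukotriene D4, had signals of 143.8 in the control, followed by 228.9, 218.7, 331.5 and 282 with 5, 10, 20 and 30% CR. Among these 40 kept pathway genes it was the 1 past 0.5 at all 4 levels, with log2 ratios of 0.67, 0.60, 1.20 and 0.97. A second probe set of Dpep1, with 44.6 in the control and 55.6 to 71.2 with CR, was kept through its CR signals alone, and its mean of 0.45 was not read as agreement. Ggt1, a gamma-glutamyl transferase of the same pathway, had 70.7 in the control, followed by 118.5, 99.5, 131.9 and 71.3, with no difference at 30% CR (0.01). The leukotriene C4 synthase Ltc4s was the lowest of the kept genes of that list, with a mean of −0.23, and Lta4h, which makes leukotriene B4, had 0.10.

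Slc22a3, an organic cation transporter that carries histamine and monoamines, had 40.3 in the control, followed by 59.9, 51.8, 73.8 and 66.2 at the 4 levels (mean log2 ratio 0.63, SD 0.22). Its control signal was below the filter value, so it was kept through its CR signals. The histamine-forming enzyme Hdc (2.7 to 16.4) and the 4 histamine receptors (at most 13.8) were below the filter, so neither the synthesis nor the sensing of histamine could be read from these arrays. Of the dehydrogenases that act on the aldehydes made by amine oxidases, Aldh3a2 had a mean log2 ratio of 0.44 (0.34 to 0.56 over the levels), Aldh9a1 0.17 and Aldh2 −0.06.

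Aoc3, a copper amine oxidase of vessel walls and adipocytes, had 111 in the control, followed by 165.8, 210.8, 127.5 and 204.7 at the 4 levels (mean log2 ratio 0.65, SD 0.34), and was lowest at 20% CR among the CR arrays. The serotonin transporter Slc6a4 had a mean of 0.12 and Ddc, which makes serotonin and dopamine, −0.06. Prostanoid synthesis genes had a median of 0.09 over 8 kept genes, from −0.05 for Hpgds, a prostaglandin D synthase, to 0.45 for the phospholipase Pla2g4a. Signals of Pla2g4a were below the filter value in the control (37.1) and at 10% CR (36.3, log2 ratio −0.03), so it too was kept through the other CR arrays. The prostaglandin transporter Slco2a1 had −0.24, and the prostaglandin E receptor Ptger4, the only kept receptor of 6 on the array, −0.21. By the brightest probe set of each gene, the 9 polyamine genes had mean log2 ratios from −0.14 for the antizyme Oaz1 to 0.10 for the spermidine synthase Srm. Single levels lay farther out, with 0.52 for the ornithine decarboxylase Odc1 and −0.38 for Amd1, both at 20% CR. The second kept probe sets of Azin1 and Oaz2 had means of −0.27 and −0.28, outside that range, and −0.74 and −0.61 at 20% CR.

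**Figure D4:**
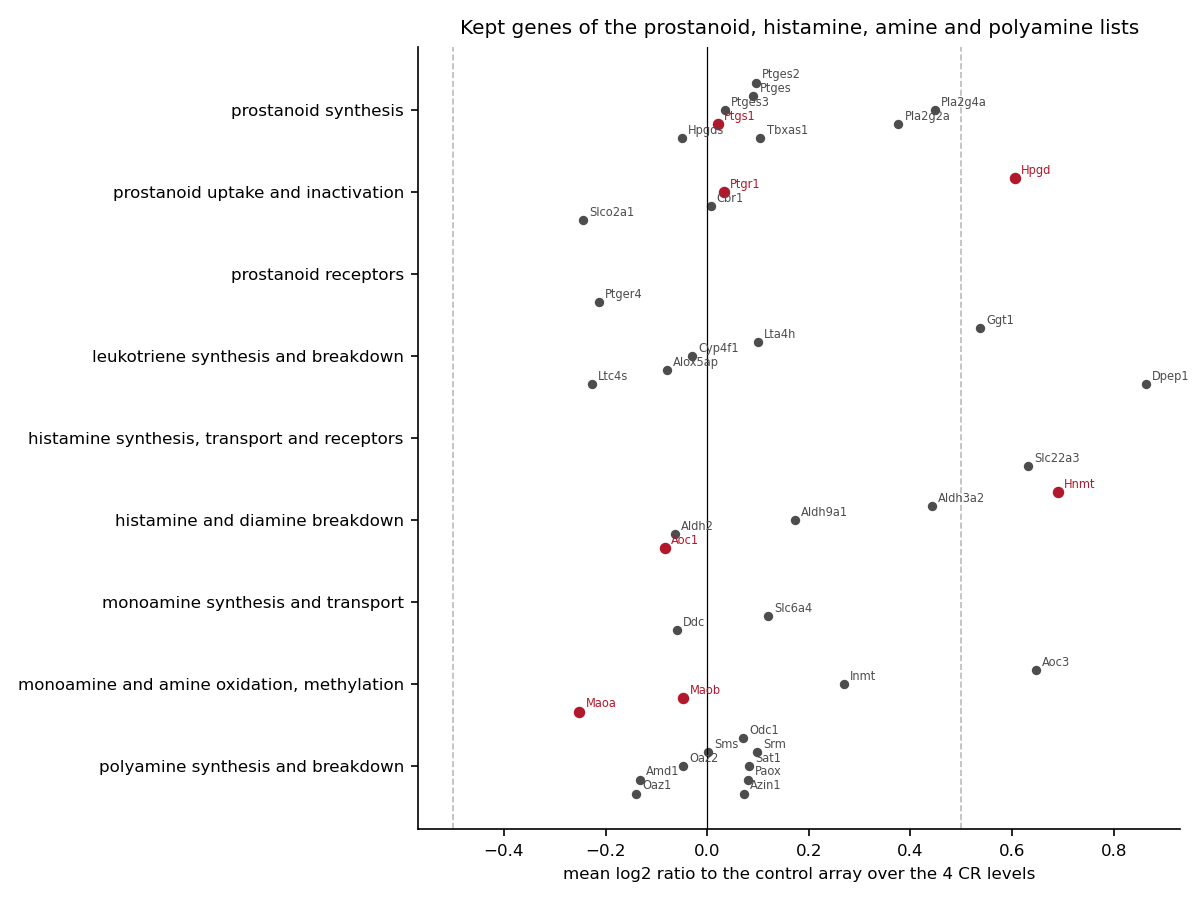
Mean log2 ratio to the control array over the 4 CR levels (horizontal axis) for each kept gene of the prostanoid, leukotriene, histamine, amine and polyamine lists, 1 point per gene; red marks the 7 enzymes and dashed lines mark −0.5 and 0.5. Dpep1, Hnmt, Aoc3, Slc22a3, Hpgd and Ggt1 are to the right of 0.5 and no gene is left of −0.5.

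Cell type markers differed between the arrays as well. The 9 enterocyte markers on the array were all kept, and their summed signal was 13307 in the control, followed by 15711, 14974, 21025 and 15172 at the 4 levels, which is 0.24, 0.17, 0.66 and 0.19 as a log2 ratio. The sum was therefore highest at 20% CR, and its largest parts in the control were Fabp1 (4064.7), Apoa1 (2696.8) and Si (2335.4). Hpgd and Hnmt were highest at 30% CR, with log2 ratios near 1. At that level the markers had 0.19 in the sum and from −0.62 (Alpi) to 1.00 (Fabp2) singly. At 20% CR the markers had 0.66 in the sum, beside 0.28 and 0.87 for Hpgd and 0.76 for Hnmt. The 9 markers did not share 1 course. The intestinal fatty acid-binding protein Fabp2 had the highest mean, with log2 ratios of 0.96, 0.88, 1.28 and 1.00, and the intestinal alkaline phosphatase Alpi had the lowest, with −0.23, −0.59, 0.19 and −0.62. The aminopeptidase Anpep and the apolipoprotein Apoa1 were also below the control at 5, 10 and 30% CR and above it at 20% CR. Fabp1, Apoa4, Si, Slc5a1 and Slc15a1, like Fabp2, were above the control at all 4 levels. The 8 smooth muscle markers summed to 11684 on the control array and between 9428 and 12809 on the CR arrays, highest at 10% CR. The 8 fibroblast and endothelial markers summed to 3573 and between 2817 and 3889, also highest at 10% CR, and their kept genes had a median log2 ratio of −0.55 at 20% and −0.47 at 30% CR. The 7 leukocyte markers summed to 2674 on the control array and between 3061 and 4132 on the CR arrays. Most of that sum was the signal of Lyz2 (2242.8 in the control). The median log2 ratio of the kept leukocyte genes was 0.24, 0.58, −0.08 and 0.36 at the 4 levels. Of 9 mast cell markers, 2 were kept, Mcpt1 (876.8 to 1147.8) and Cpa3 (160.2 to 253.9). The 3 kept of 7 neuronal and glial markers were part of a summed signal of 348.1 in the control and 351 to 407.2 with CR. All 5 proximal small intestine markers and 1 of 4 distal ones (Nr1h4) were kept, with sums over the markers on the array of 5583 and 139.9 in the control. The proximal sum was higher on every CR array, with log2 ratios of 0.27, 0.24, 0.46 and 0.26, and most of it was the signal of Fabp1, which is also an enterocyte marker. The other proximal markers did not share 1 course. The duodenal transcription factor Pdx1 was lower at every level (−0.12, −0.44, −0.46 and −0.56). The duodenal iron reductase Cybrd1 had 0.00, −0.01, −0.09 and −0.63. Slc40a1 had 0.06, −0.53, −0.63 and −0.23, and Gata4 had −0.01, −0.07, 0.04 and −0.02. The distal sum lay between 109.4 and 179.7 on the CR arrays. Whether the pools sampled the same position along the intestine was not tested. The part of these differences in the values of the enzymes was not tested, and in pooled whole tissue fewer cells of a type and less RNA per cell cannot be told apart.

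**Figure D5:**
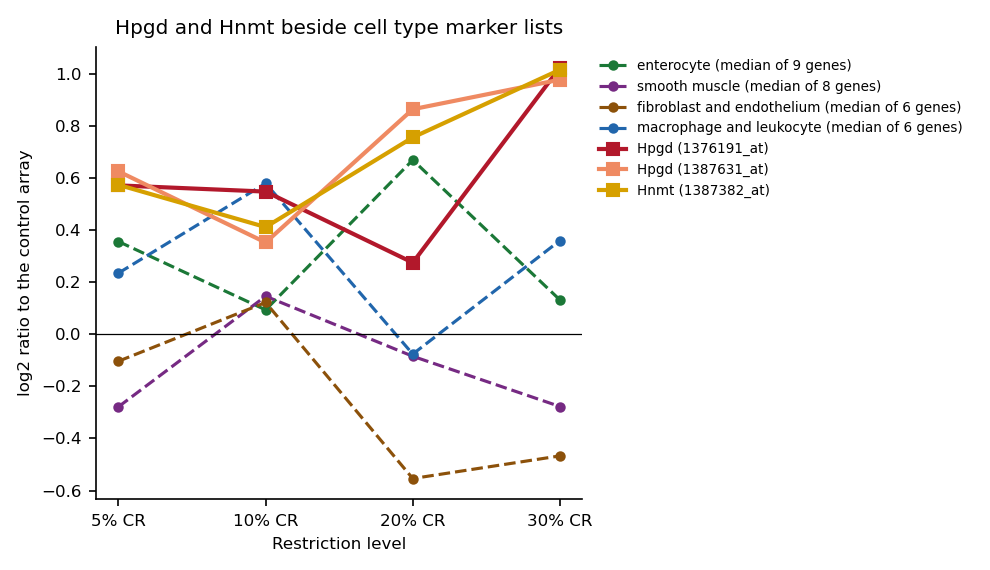
Log2 ratio to the control array at each CR level for the 3 kept probe sets of Hpgd and Hnmt (squares, solid lines) and the median over the kept genes of 4 marker lists (circles, dashed lines). At 30% CR the enzymes are near 1 and the enterocyte median is 0.13, with single enterocyte markers (not drawn) from −0.62 to 1.00. At 20% CR the enterocyte median is 0.67, beside 0.28 and 0.87 for Hpgd and 0.76 for Hnmt.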

How the data were processed

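The authors extracted total RNA from the small intestine, pooled 5 rats per group and used 1 Affymetrix rat expression array for each pool. They deposited MAS5 signals (intensity, linear scale) from the GeneChip Operating Software, scaled to a common trimmed mean. Their detection and change calls are not used here. No source used here states the target of that scaling.

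Deposited signals under 0.1 were set to 0.1 before log2 was taken, and 57 array controls were left out. Of 15866 probe sets, 12783 carry 1 gene name, 312 several and 2771 none in the array annotation. Gene probes at or above quantile 0.5 of the mean log2 signal were kept. Ratios were taken to the control array, and slopes are least squares fits over 5 arrays (3 residual degrees of freedom). SDs are over the 4 CR levels, which are different doses. Lists use the brightest probe set of a gene, and promoter windows come from RefSeq. With 1 array per level no test was made, and the number of arrays limits the precision.

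The enzymes and the lists were chosen with earlier results of these data known. Named genes are all 7 enzymes, the highest and lowest kept gene of each list, list genes past 0.5 at all levels and the 3 nearest patterns per enzyme, of which some are given. Aldh2, Aldh3a2, Aldh9a1, Alpi, Amd1, Anpep, Apoa1, Azin1, Cybrd1, Fabp1, Fabp2, Ggt1, Hdc, the histamine receptors, Lta4h, Mcpt1, Nr1h4, Oaz2, Odc1, Pdx1, Cpa3 and Ptgs2 were named after their values were seen. So were Apoa4, Gata4, Inmt, Lyz2, Si, Slc15a1, Slc40a1 and Slc5a1. Motifs were also chosen then. Python 3.11.15, numpy 2.4.6, pandas 2.3.3, scipy 1.17.1 and matplotlib 3.10.9 were used. The calculations were tested on simulated data. The alternatives tried were other scalings (by quantiles or by the median), a constant of 13 added to each signal, other filters (none, or quantile 0.75) and sizes (0.25 and 1), the rank of the level, the mean over the probe sets of a gene, and each pool left out in turn. The control pool was left out for the slopes alone, an alternative added after seeing the data.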

Additional observations from a re-analysis of the deposited data

How the results depend on the processing

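The mean log2 ratios of Hpgd and Hnmt ranged over the alternatives from 0.47 to 0.72 for the brighter and 0.61 to 0.82 for the dimmer probe set of Hpgd, and 0.58 to 0.78 for Hnmt, with the value of 0.47 found without the 30% CR pool. Leaving out a CR pool could not change their direction, because the ratios at all 4 levels were positive. All ratios share the 1 control array, which no alternative for the means left out, so nothing is read from the kept direction. The counts of enzyme probe sets past the size depended on it. With a size of 1, 0 were higher at 5, 10 or 20% CR. With a size of 0.25, 3 were higher at 10% CR, 4 at 20% CR and 3 at all levels, and 1 (Maob at 10% CR, Maoa at 20 and 30% CR) was lower. The count higher at 10% CR was 0 after median centring and 2 without the signal filter, and the count higher at all levels was 1 without the filter (the dim probe set of Hnmt) and between 0 and 2 with each CR pool left out in turn, 2 without the 10% CR pool. Over all kept probe sets, 61 higher and 27 lower at all levels became 693 and 443 without the filter, 16 and 6 with the stricter one, 267 and 221 at a size of 0.25, and 10 and 1 at a size of 1; 38 were higher with an added constant. Leaving out the 10% CR pool gave 104 and 60, leaving out that of 20% CR gave 117 and 45, and leaving out that of 30% CR gave 43 lower. The slope of Ptgr1 went from 0.07 to 0.20 and that of Aoc1 from 0.00 to −0.07 without the 30% CR pool. No paired analysis was possible because each diet had its own rats and 1 array. With 1 array per level and signals that have no detection call, differences under the spread between arrays cannot be read.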
